A study of Homo sapiens with 4 samples.

Results

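The 10 genes described here are long noncoding RNAs: NBAT1 and CASC15, named for neuroblastoma risk, the neural transcript MIAT, the imprinted transcripts MEG3 and H19, the nuclear transcripts MALAT1 and NEAT1, and the snoRNA host genes GAS5, SNHG1 and SNHG16. They were taken by gene symbol from a table of raw read counts with 60612 genes, of which 14828 are annotated as long noncoding. All 10 were found, and all 10 had enough reads to be tested. The counts come from RNAseq of IMR-32, a MYCN-amplified line established from a human neuroblastoma, and address how loss of the transcription factor NeuroD1 changes its transcriptome. All 4 libraries were of cells stably transduced with an inducible hairpin and given doxycycline at 1 µg/mL for 48 h. The 2 shControl libraries carried a control hairpin and are labelled wild type, and the 2 shNeuroD1 libraries carried a hairpin against NeuroD1. The labels do not name that hairpin, and the study's own table of the comparison carries the name of only the second of its NeuroD1 hairpins. The titles number the knockdown libraries 1 and 2, as the study numbers its NeuroD1 hairpins, but the control titles are numbered alike. The labels therefore do not settle if both knockdown libraries carried the same hairpin. Nor do they tell if libraries sharing a group came from separate cultures, so the p-values measure the spread between these libraries.

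Long noncoding RNAs are transcribed and usually spliced like messenger RNAs but are not translated into a conserved protein. Some work in place in the nucleus, as scaffolds of nuclear bodies or by recruiting chromatin complexes. Others are by-products of making something else, as in snoRNA host genes, whose introns release small nucleolar RNAs while the spliced exons are often degraded during translation. In neuroblastoma the best-known pair is NBAT1 and CASC15, transcribed from opposite strands at a risk locus on chromosome 6 beside SOX4. MEG3 is expressed from the maternal chromosome of the DLK1 to DIO3 domain, and H19 from the maternal chromosome beside IGF2.

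Libraries held 14665210 to 16482463 counted reads. NEUROD1 itself fell from 419 and 415 CPM (counts scaled to library size, TMM-scaled) in shControl to 63.7 and 58.2 CPM in shNeuroD1. Its log2 fold change was -2.77 ± 0.0504 (SE, n = 2 libraries per group, adjusted p = 8.6e-29, edgeR). Markers of adrenergic neuroblastoma were read as a check of the cell type. HAND2, a transcription factor of sympathetic neurons, stood at 791 and 784 CPM in shControl and 725 and 710.0 CPM in shNeuroD1. Dopamine beta-hydroxylase, encoded by DBH, did not exceed 1.56 CPM in any library. The 4 immune markers together did not exceed 0.920 CPM in any library, and the mesenchymal marker PRRX1 had no read. The 7 mesenchymal markers summed to 70.4 and 81.1 CPM in shControl and to 53.3 and 51.4 CPM in shNeuroD1, whereas the 4 Schwann cell markers summed to 5.16 and 5.04 CPM against 8.41 and 9.59 CPM. The part of these shifts in the results below was not tested, and in bulk RNA fewer cells of a type and less RNA per cell cannot be told apart.

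The transcripts fell into a set that rose, a set that fell and a set that passed no test. MEG3, MIAT, NEAT1 and CASC15 were higher in shNeuroD1 (4 of 10 at an adjusted p under 0.05, edgeR), and 26.8% of all 17537 genes tested were higher by that rule. SNHG1, SNHG16 and GAS5 were lower (3 of 10, against 28.2% of all genes tested). MALAT1, NBAT1 and H19 did not pass. MEG3 and MIAT also exceeded a log2 fold change of 1, a rule that 8.79% of all genes passed upward, and none of the 10 fell by more than 1, as 5.14% of all genes did. Among the 2512 long noncoding genes tested, 29.8% were higher and 8.52% were lower, and their median log2 fold change was 0.29. The median was -0.031 over 13414 protein coding genes and 0.0084 over all genes, and over the 10 transcripts it was 0.23.

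The starts of 5 of these RNAs are shown for what the host genes share at their 5′ end and for how MEG3 and MIAT begin. Each line gives the first 30 bases of the start shared by more GENCODE 29 transcripts of the gene than any other, 5′ to 3′ on the transcribed strand of GRCh38, with the unbroken run of C and T from the first base in capitals. An opening C followed by several pyrimidines is the hallmark of terminal oligopyrimidine RNAs, the class of translation-machinery transcripts to which snoRNA host genes are known to belong.
GAS5 (chr1:173867960-173867989, minus strand): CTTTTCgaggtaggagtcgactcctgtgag
SNHG16 (chr17:76557769-76557798, plus strand): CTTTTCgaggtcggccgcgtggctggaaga
SNHG1 (chr11:62855459-62855488, minus strand): CTTattgggctcctgtctgcaggatttacg
MEG3 (chr14:100826118-100826147, plus strand): gcagacggcggagagcagagagggagcgcg
MIAT (chr22:26657520-26657549, plus strand): gagggagggaggctgcggacgagtgcgggg
GAS5 and SNHG16 share their first 11 bases and open with 6 pyrimidines, SNHG1 opens with 3, and MEG3 and MIAT open with a purine. Of 206694 GENCODE 29 transcripts, 2.41% open with C and at least 4 further pyrimidines. These starts are annotation and not a measurement, and they are used by 6 of 29 GAS5, 2 of 8 SNHG16, 9 of 25 SNHG1, 6 of 48 MEG3 and 3 of 23 MIAT transcripts.

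**Figure D1:**
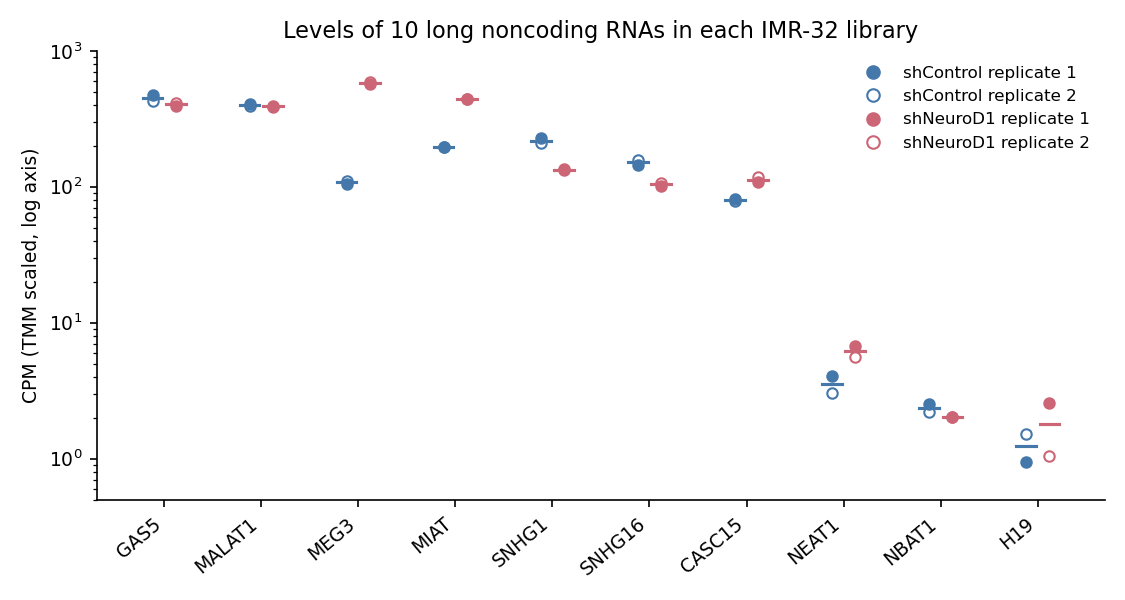
Level of each of the 10 long noncoding RNAs in each library, in TMM-scaled CPM on a log axis, ordered by the mean over all 4 libraries. Points are single libraries and bars are group means (n = 2 per group); MEG3 went from about 108 to 583 CPM, while MALAT1 lay at 387 to 407 CPM in all 4 libraries.

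The rise of MEG3 was the largest of the 10. MEG3 (chr14:100779410-100861031, plus strand, annotated as a lincRNA) is a nuclear transcript known as a growth-suppressing RNA that acts through p53 and through Polycomb. It stood at 105 and 111 CPM in shControl and at 572 and 593 CPM in shNeuroD1. Both knockdown libraries were far above both control libraries, with no overlap, and the gap within a group was small beside the gap between groups. The log2 fold change was 2.43 ± 0.0460 (adjusted p = 2.0e-28, edgeR), a 5.38-fold rise, and 98.6% of genes tested had a smaller log2 fold change. MEG3 made up 6.73% of the summed CPM of the 10 transcripts in shControl and 26.7% in shNeuroD1.

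Of 124 annotated genes in the DLK1 to DIO3 domain (chr14:100725705-101563452), 19 had a read and 4 were tested. Beside MEG3 itself these were DLK1, MEG8 and MEG9, and each of those 3 was higher by more than 1 on the log2 scale. DLK1, the paternally expressed gene that encodes a membrane protein of the Notch ligand family, lies 41186 bases before MEG3. It rose from 2.10 and 2.39 CPM to 14.8 and 13.3 CPM, a log2 fold change of 2.64 ± 0.180 (adjusted p = 4.8e-14, edgeR). DLK1 is expressed from the chromosome copy that does not express MEG3, and the counts cannot separate the copies. MEG8, the maternally expressed host of a snoRNA cluster, rose from 1.70 and 1.26 CPM to 3.88 and 4.93 CPM, with a log2 fold change of 1.58 (adjusted p = 1.1e-05). MEG9, a further maternal noncoding RNA, rose from 1.02 and 0.882 CPM to 3.29 and 3.09 CPM, with a log2 fold change of 1.74 (adjusted p = 2.8e-05). RTL1 had at most 4 reads in a library and was not tested, and DIO3 had at most 2.

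A list of imprinted genes, those of the DLK1 to DIO3 domain included, did not all go the way of MEG3. Of 28 on the list, 20 were tested, and 11 were higher and 4 lower, beside 26.8% and 28.2% of all genes. All 4 scalings and tools tried gave 4 lower and 10 or 11 higher. The median log2 fold change of the list, that domain included, was 0.53. MEST, a paternally expressed hydrolase gene, fell from 71.7 and 69.1 CPM to 21.3 and 17.5 CPM (log2 fold change -1.86, adjusted p = 3.1e-19). NNAT, a paternally expressed neuronal proteolipid gene, fell from 664 and 629 CPM to 321 and 313 CPM (log2 fold change -1.03, adjusted p = 7.6e-20). DLK1, MEG8 and MEG9 were 3 of the 11 that rose.

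MIAT had the next largest rise of the 10. MIAT (chr22:26646428-26676475, plus strand, lincRNA) is a neuronal transcript of nuclear foci that carries tandem binding sites for the splicing factor SF1. It stood at 196 and 194 CPM in shControl and at 441 and 443 CPM in shNeuroD1. The groups did not overlap, and within each group the libraries were within 2 CPM of one another. The log2 fold change was 1.18 ± 0.0422 (adjusted p = 3.0e-21, edgeR). Of its exon bases, 25.6% are shared with other gene records, MIATNB among them, so reads there could be split between genes.

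Of 9 RNA-binding proteins known or proposed to bind MIAT, 5 were lower and 2 were higher, beside 28.2% and 26.8% of all genes. CELF3, a neuronal splicing regulator, rose from 93.6 and 86.3 CPM to 264 and 274 CPM, with a log2 fold change of 1.58 ± 0.0492 (adjusted p = 7.6e-23, edgeR). PTBP2, the neuronal polypyrimidine tract protein, was at 92.4 and 89.2 CPM against 103 and 99.9 CPM (log2 fold change 0.16, adjusted p = 0.011). PTBP1, its counterpart in non-neuronal cells, fell from 375 and 383 CPM to 255 and 249 CPM (log2 fold change -0.59, adjusted p = 1.5e-13). KHDRBS1, a signal-responsive splicing factor, fell from 328 and 325 CPM to 236 and 227 CPM (log2 fold change -0.50, adjusted p = 1.0e-11). SF1 itself did not pass the test, at 276 and 274 CPM against 260 and 261 CPM (adjusted p = 0.12).

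The long noncoding genes closest to MIAT and MEG3 in pattern were found among 1848 with a mean of at least 1 CPM, by the distance of centred log2 CPM over the 4 libraries. For MIAT they were DLX6-AS1, TROAP-AS1 and TMEM9B-AS1, with log2 fold changes of 1.22, 1.11 and 1.198. For MEG3 they were FMNL1-AS1, MIR100HG and LINC01285, with log2 fold changes of 2.54, 2.58 and 2.77. MIR100HG, a microRNA host gene, was the most abundant of these 6 at a mean of 68.6 CPM. Counts of antisense genes are uncertain where use of strand is not stated. With 4 libraries in 2 groups, this likeness describes little beyond the size of the change.

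**Figure D2:**
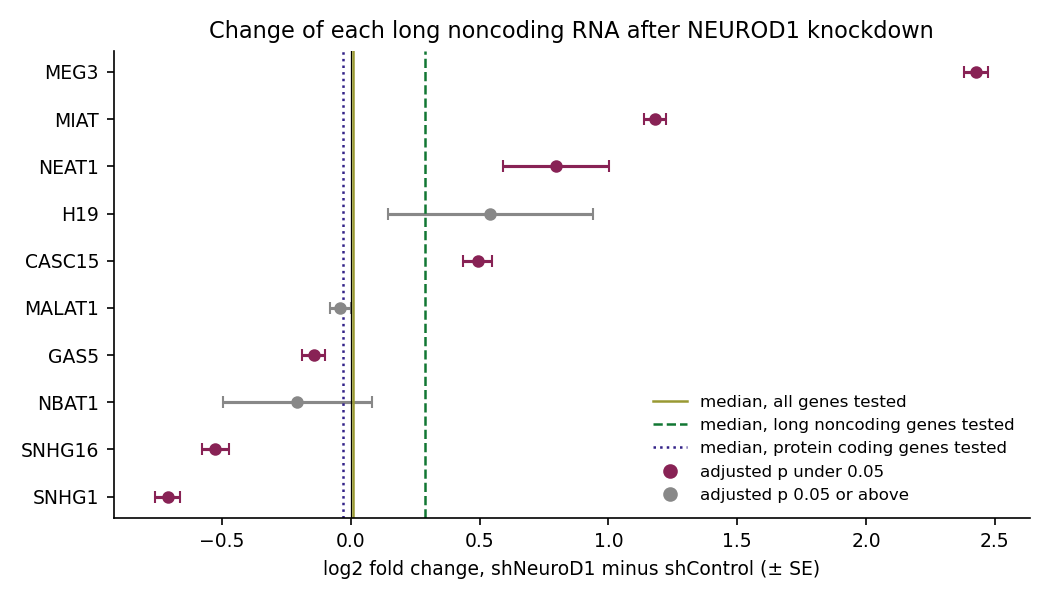
Log2 fold change of each transcript, shNeuroD1 minus shControl, with its standard error from edgeR; filled purple points had an adjusted p under 0.05 and grey points did not, and vertical lines mark the medians of all, long noncoding and protein coding genes tested. MEG3 at 2.43 and MIAT at 1.18 lie to the right of the long noncoding median of 0.29, and SNHG1 at -0.71 lies furthest to the left.

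NBAT1 and CASC15, the antisense pair, gave unlike results. CASC15 (chr6:21664772-22368328, plus strand, lincRNA) spans the whole risk locus and has been described as a tumour suppressor of neuroblastoma in its short form. It rose from 81.6 and 78.5 CPM to 108 and 117 CPM without overlap, a log2 fold change of 0.49 ± 0.0550 (adjusted p = 3.9e-09, edgeR). NBAT1 (chr6:22134957-22147193, minus strand, lincRNA) is known to promote neuronal differentiation and to bind the Polycomb methyltransferase EZH2. It had 37 and 35 reads in shControl and 31 and 31 reads in shNeuroD1. The log2 fold change was -0.21 ± 0.290 and did not pass the test (adjusted p = 0.57), and at this depth its error was larger than the change itself. As a share of CASC15 CPM, NBAT1 stood at 3.08% and 2.81% in the control libraries and at 1.89% and 1.74% in the knockdown libraries. The difference between the changes of NBAT1 and CASC15 was not tested. The genes share 227 exon bases on opposite strands, 11.7% of the NBAT1 exon length, and use of strand in counting was not stated.

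Of 7 tested genes that act with this pair, 5 were lower and 2 higher, beside 28.2% and 26.8% of all genes. SOX4, the developmental transcription factor 66153 bases from CASC15, fell from 303 and 297 CPM to 173 and 174 CPM (log2 fold change -0.79, adjusted p = 2.3e-16, edgeR). CHD7, a chromatin remodeller reported to link the pair to SOX9, fell from 169 and 183 CPM to 84.9 and 86.6 CPM (log2 fold change -1.04, adjusted p = 1.3e-17). SOX9, a transcription factor of the neural crest, rose from 2.51 and 2.52 CPM to 6.90 and 7.75 CPM (log2 fold change 1.54, adjusted p = 1.3e-07). USP36, a nucleolar deubiquitinase reported to act on CHD7, rose from 130 and 131 CPM to 152 and 153 CPM (log2 fold change 0.22, adjusted p = 0.00015). EZH2, the partner of NBAT1, had a log2 fold change of -0.61, the neuronal repressor REST -0.51, and the matrix proteoglycan VCAN -0.61. OSMR, a cytokine receptor subunit, did not exceed 1.13 CPM in any library and was not tested.

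Each of the 3 snoRNA host genes fell. SNHG1 (chr11:62851988-62855914, minus strand), a host of box C/D snoRNAs with high expression in MYCN-amplified tumours, stood at 228 and 208 CPM in shControl and at 132 and 135 CPM in shNeuroD1. The groups did not overlap, and the log2 fold change was -0.71 ± 0.0488 (adjusted p = 5.6e-14, edgeR). SNHG16 (chr17:76557766-76565348, plus strand), first described as a transcript of aggressive neuroblastoma, stood at 144 and 158 CPM against 102 and 107 CPM. Its log2 fold change was -0.53 ± 0.0522 (adjusted p = 3.0e-10, edgeR), and 33.4% of its exon bases lie in other gene records.

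GAS5 (chr1:173863900-173868882, minus strand), a growth-arrest transcript, had the highest CPM of the 10 in shControl but was below MEG3 and MIAT in shNeuroD1, and it moved least among those called. It stood at 470.4 and 424 CPM in shControl and at 393 and 416 CPM in shNeuroD1, with the groups only just apart. The log2 fold change was -0.14 ± 0.0456 (adjusted p = 0.0078, edgeR). The call rested on single libraries: without shControl replicate 1 the log2 fold change was -0.068 (adjusted p = 0.29), and without shNeuroD1 replicate 1 it was -0.11 (adjusted p = 0.19). It also ended when libraries were scaled by their totals alone (-0.032, adjusted p = 0.56), a scaling that moved the median of all genes from 0.0084 to 0.12, and when no filter on low counts was used (-0.16, adjusted p = 0.071). The 3 host genes together summed to 843 and 790 CPM in shControl and to 627 and 658 CPM in shNeuroD1. SNHG1 went from 0.486 and 0.491 times the GAS5 CPM to 0.336 and 0.324 times.

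Further snoRNA host genes went both ways. Of 28 further noncoding or partly noncoding hosts tested, 7 were lower, 8 were higher and 13 did not pass. Among all genes tested, 28.2% were lower and 26.8% higher. The median log2 fold change of these hosts was 0.018, and scaling by totals alone gave 4 lower and 9 higher. SNHG26 fell from 14.1 and 17.7 CPM to 8.55 and 9.39 CPM (log2 fold change -0.83, adjusted p = 4.6e-06, edgeR). DANCR, a host known for blocking differentiation, fell from 155 and 151 CPM to 89.7 and 87.5 CPM (log2 fold change -0.79, adjusted p = 8.1e-15). MEG8 rose, as described with its domain, and SNHG10 rose from 9.57 and 9.32 CPM to 13.1 and 14.71 CPM (log2 fold change 0.56, adjusted p = 0.00059).

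**Figure D3:**
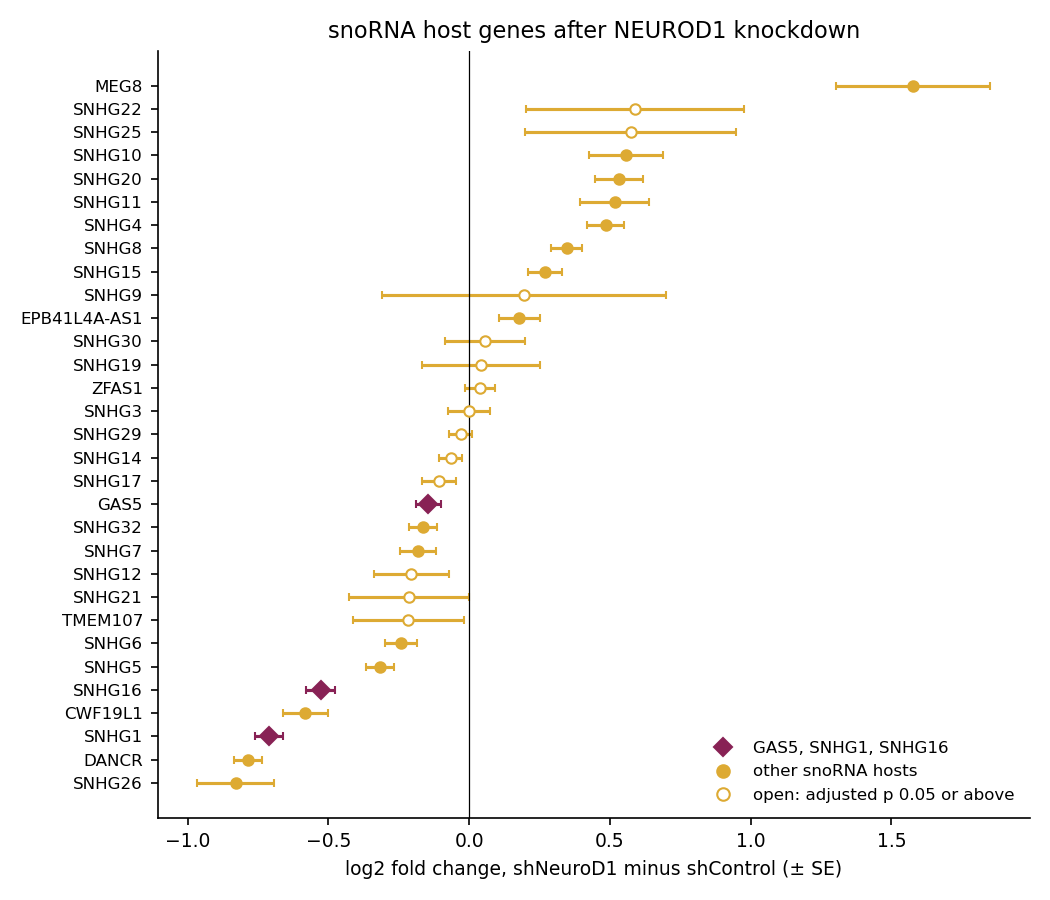
Log2 fold change with standard error (edgeR) of the 3 snoRNA hosts GAS5, SNHG1 and SNHG16 (diamonds) and 28 further hosts tested (circles), with open symbols for an adjusted p of 0.05 or above. SNHG1 and SNHG16 lie in the lower group beside DANCR and SNHG26, and other hosts such as SNHG10 lie above 0.

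Proteins that assemble snoRNPs were lower for 9 of 16 genes tested and higher for 1, beside 28.2% and 26.8% of all genes. Their median log2 fold change was -0.15, and scaling by totals alone gave 6 lower and 2 higher. PIH1D1, a subunit of the assembly chaperone, fell from 65.5 and 66.4 CPM to 41.5 and 35.2 CPM (log2 fold change -0.78, adjusted p = 3.4e-11, edgeR). NOP58, a core protein of box C/D snoRNPs, fell from 189 and 183 CPM to 137 and 135 CPM (log2 fold change -0.45, adjusted p = 5.1e-10). SNU13, which binds the snoRNA directly, passed narrowly in the other direction (log2 fold change 0.11, adjusted p = 0.048).

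Factors of nonsense-mediated decay, the pathway that degrades spliced host transcripts such as GAS5, were lower for 9 of 17 genes and higher for 2. Shares over all genes were 28.2% and 26.8%. The order of the decay factors flipped to 3 lower and 6 higher when scaled by totals alone. EIF4A3, of the exon junction complex, fell from 275 and 251 CPM to 146 and 148 CPM (log2 fold change -0.84, adjusted p = 4.4e-16, edgeR). MAGOH, of the same complex, fell from 121 and 116 CPM to 85.6 and 78.4 CPM (log2 fold change -0.53, adjusted p = 6.4e-10). DHX34, a helicase of the pathway, rose from 23.3 and 23.2 CPM to 32.0 and 32.1 CPM (log2 fold change 0.46, adjusted p = 2.5e-05). SMG5, which helps to remove phosphate from the helicase UPF1, had a log2 fold change of 0.11 (adjusted p = 0.047).

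MALAT1 did not pass the test. MALAT1 (chr11:65497688-65506516, plus strand, lincRNA) is an unspliced, very abundant RNA of nuclear speckles, the stores of splicing factors. It stood at 407 and 394 CPM in shControl and at 387 and 392 CPM in shNeuroD1. The log2 fold change was -0.041 ± 0.0409 (adjusted p = 0.42, edgeR) and became 0.072 when libraries were scaled by their totals alone. Of 18 genes for nuclear speckle proteins tested, 11 were lower, 1 was higher and 6 did not pass (8 lower and 1 higher when scaled by totals alone), beside 28.2% lower and 26.8% higher of all genes, and their median log2 fold change was -0.13. SRSF7 fell from 365 and 339 CPM to 209 and 206 CPM (log2 fold change -0.76, adjusted p = 1.0e-15). SRSF3, a second small SR splicing factor, fell from 721 and 686 CPM to 429 and 428 CPM (log2 fold change -0.72, adjusted p = 4.2e-16). SRRM2, a scaffold of the speckle, had a log2 fold change of 0.14 (adjusted p = 0.0023).

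NEAT1 rose at a low level. NEAT1 (chr11:65422774-65445540, plus strand, lincRNA) is the architectural RNA around which paraspeckles form. It had 60 and 48 reads in shControl and 102 and 85 reads in shNeuroD1, or 4.07 and 3.02 CPM against 6.71 and 5.58 CPM. The groups did not overlap, and the log2 fold change was 0.80 ± 0.206 (adjusted p = 0.0015, edgeR). Without shControl replicate 2 it was 0.59 and no longer passed (adjusted p = 0.11). NEAT1 stood at 1.00% and 0.767% of MALAT1 CPM in shControl and at 1.73% and 1.42% in shNeuroD1. The libraries were labelled as poly(A) RNA, and the protocol text names a poly(A) kit or an rRNA removal kit, so how far the long form of NEAT1, which has no poly(A) tail, was captured is not known.

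Of 20 genes for paraspeckle proteins tested, 15 were lower, 1 was higher and 4 did not pass, beside 28.2% lower and 26.8% higher of all genes. Their median log2 fold change was -0.37, and scaling by totals alone gave 14 lower and 3 higher. PSPC1, a core protein of the body, fell from 118 and 113 CPM to 72.4 and 73.0 CPM (log2 fold change -0.67, adjusted p = 2.0e-12, edgeR). TARDBP, an RNA-binding protein that joins the body, fell from 176 and 179 CPM to 119 and 111 CPM (log2 fold change -0.62, adjusted p = 1.4e-12). RBM14, needed for paraspeckles to assemble, rose from 85.9 and 88.9 CPM to 120 and 123 CPM (log2 fold change 0.47, adjusted p = 2.3e-09).

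H19 was near the limit of detection. H19 (chr11:1995176-2001470, minus strand), a fetal growth-restraining RNA and the host of miR-675, had 14 and 24 reads in shControl and 39 and 16 reads in shNeuroD1. The groups overlapped, since shNeuroD1 replicate 2 lay between the control libraries. The log2 fold change was 0.54 ± 0.398 (adjusted p = 0.26, edgeR), and it ranged from -0.24 to 1.04 as single libraries were left out. With shNeuroD1 replicate 2 left out it passed the test (adjusted p = 0.031), and with shNeuroD1 replicate 1 left out its direction turned. IGF2, the neighbour that shares its imprinting control, was listed at 0 in all 4 libraries, and other gene records overlap it. MRPL23, the coding gene on the other side, overlapped between groups (log2 fold change 0.094, adjusted p = 0.61).

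Levels were compared between genes as CPM per kilobase of merged exon length. In shControl the order was GAS5 at a mean of 123, SNHG1 at 58.1, MALAT1 at 45.4, SNHG16 at 28.1, MIAT at 16.50, CASC15 at 6.02, MEG3 at 4.66, NBAT1 at 1.22, H19 at 0.425 and NEAT1 at 0.156, and no neighbours in this order overlapped between their 2 libraries. In shNeuroD1 MEG3 stood at 25.1 and passed SNHG16 at 19.5, and MIAT stood at 37.4 and passed SNHG1 at 35.5. In shNeuroD1 H19, at 0.885 and 0.363, stayed below NBAT1 at 1.05 in both libraries. The merged length counts every annotated exon, and at 23224 bases for MEG3 and 22767 bases for NEAT1 it is far above that of their short transcripts. Values per kilobase of these genes are therefore low estimates. Other genes share this limit to unlike degrees. The merged length was 3631 bases for GAS5, whose longest transcript has 1698, and 13289 bases for CASC15, whose longest has 4461. The order above thus depends on the length chosen.

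The deposited FPKM values of transcript starts (fragments scaled for transcript length and depth, one value per assembled start) gave a second view of the same libraries. The main MEG3 start (chr14:100826098) stood at 5.21 and 3.61 FPKM in shControl and at 21.8 and 22.2 FPKM in shNeuroD1, and the groups did not overlap. Summed over its starts, MIAT stood at 14.6 and 20.8 FPKM against 27.8 and 39.9 FPKM, and both main starts lay near the sequence printed above, 10792 bases or more from the RefSeq start of the gene. SNHG1 summed to 41.5 and 37.3 FPKM against 28.2 and 18.2 FPKM. SNHG16 summed to 105 and 74.2 FPKM against 50.1 and 55.9 FPKM, and GAS5 to 37.0 and 36.9 FPKM against 31.8 and 25.1 FPKM. CASC15 summed to 1.03 and 1.16 FPKM against 1.59 and 1.54 FPKM. In each of these 6 genes the direction was that of the counts, which come from the same libraries. How often the groups were without overlap over all genes was not computed. H19 overlapped, at 0.365 and 1.81 FPKM against 2.06 and 1.15 FPKM. In limma on log2(FPKM + 1) MEG3 alone passed. MIAT (0.89, adjusted p = 0.13), SNHG1 (-0.77, adjusted p = 0.14) and SNHG16 (-0.73, adjusted p = 0.12) did not.

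Single starts were less stable than their sums. The GAS5 start at chr1:173867045 was listed at 19.2 and 32.5 FPKM in shControl and at 10.5 and 10.6 FPKM in shNeuroD1. The GAS5 start at chr1:173867989, whose sequence is printed above, was listed at 5.70 and 4.16 FPKM against 7.45 and 1.39 FPKM, so the groups overlapped there. The outermost SNHG1 start (chr11:62855932) was listed at 19.8 and 25.1 FPKM against 0 and 10.2 FPKM, and the start at chr11:62855823 at 17.3 and 11.8 FPKM against 28.2 and 4.88 FPKM. At the outermost start both knockdown libraries were below both controls, and at the other the groups overlapped.

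**Figure D4:**
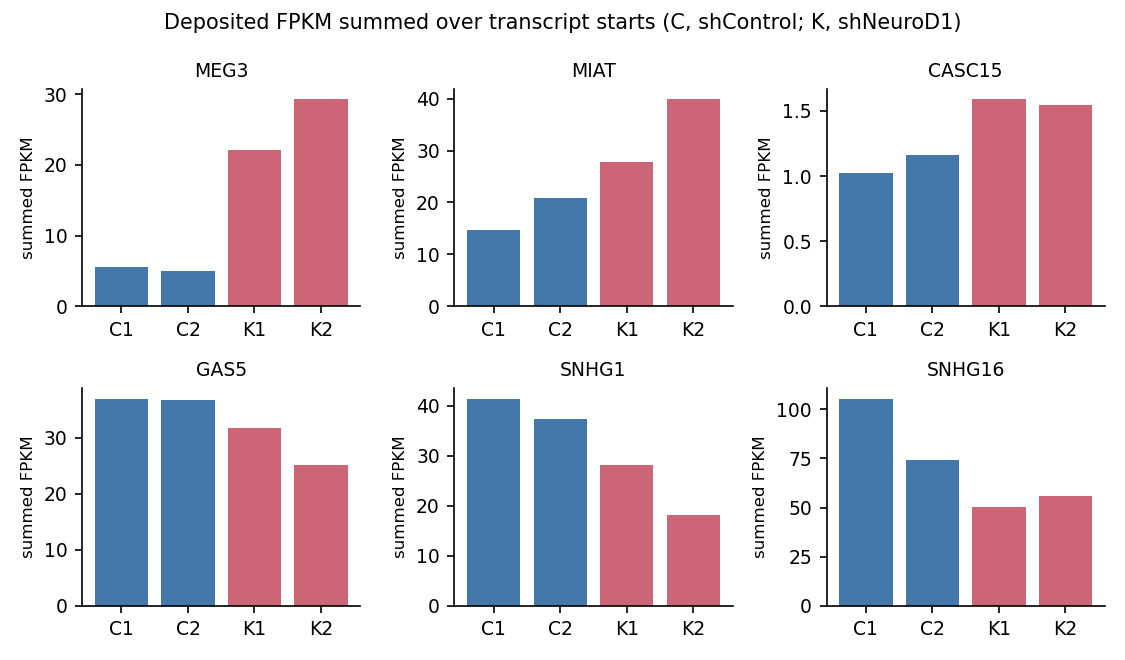
Deposited FPKM summed over the transcript starts of 6 of the RNAs, with a bar per library (C1 and C2, shControl; K1 and K2, shNeuroD1) and axes from 0. The knockdown bars are above both control bars for MEG3, MIAT and CASC15 and below both for GAS5, SNHG1 and SNHG16.

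The nearest protein coding genes were read beside each transcript. SLC3A2, which encodes the heavy chain of amino acid transporters, starts 188 bases from SNHG1 on the opposite strand, and it fell from 156 and 155 CPM to 78.2 and 78.7 CPM (log2 fold change -0.99, adjusted p = 2.9e-17, edgeR). WDR74, on the other side of SNHG1, had a log2 fold change of 0.0071 (adjusted p = 0.94). PRCD, a photoreceptor disc gene that ends 4188 bases before SNHG16 on the same strand, rose from 12.1 and 10.3 CPM to 82.4 and 83.6 CPM (log2 fold change 2.89, adjusted p = 6.3e-24) while SNHG16 fell. ST6GALNAC2, 31 bases beyond the end of SNHG16, had at most 3 reads in a library.

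Around the risk locus, PRL, the prolactin gene that lies within the span of CASC15, fell from 18.5 and 20.3 CPM to 5.33 and 6.96 CPM (log2 fold change -1.66, adjusted p = 7.4e-12, edgeR) while CASC15 rose. HDGFL1, beyond the other end of CASC15, had no read. MN1, 1071802 bases from MIAT, fell from 12.4 and 12.6 CPM to 7.03 and 6.96 CPM (log2 fold change -0.83, adjusted p = 8.0e-06), and CRYBA4, on the other side, had at most 5 reads. SERPINC1, on one side of GAS5, had at most 1 read. FRMD8, 9249 bases from NEAT1, did not pass (0.067, adjusted p = 0.57).

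**Figure D5:**
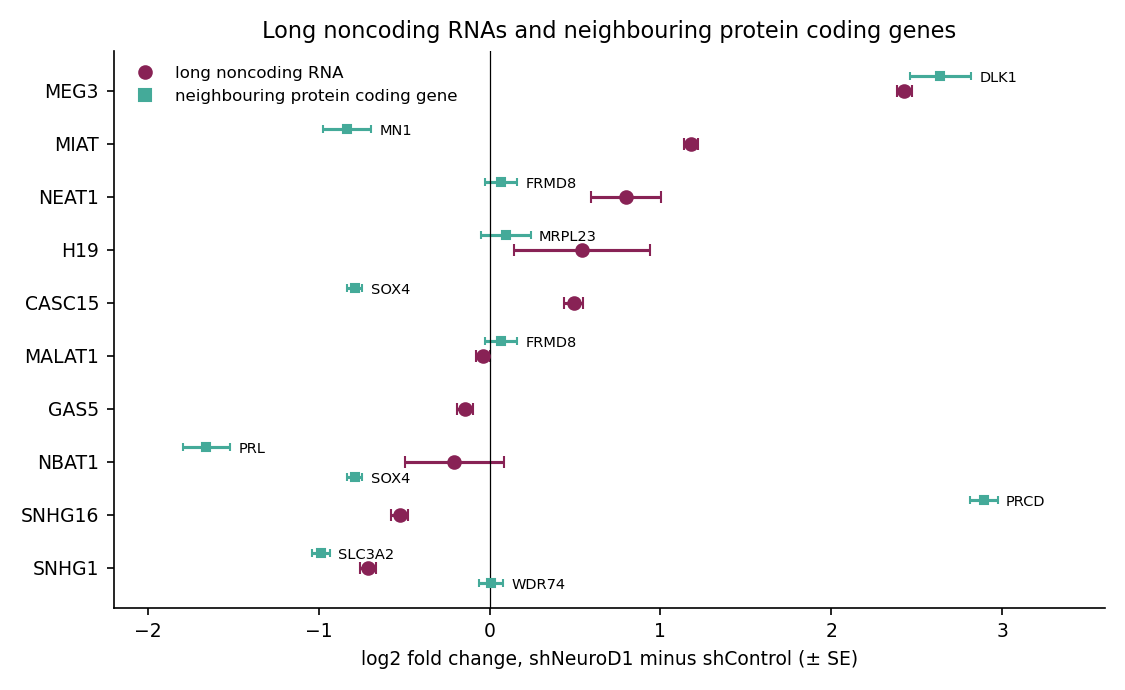
Log2 fold change with standard error (edgeR) of each long noncoding RNA (circles) and of the neighbouring protein coding genes reported (squares), shNeuroD1 minus shControl. DLK1 lies beside MEG3 and SLC3A2 beside SNHG1, whereas PRCD at 2.89 and SNHG16 at -0.53 lie on opposite sides of 0.

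NeuroD1 binds E-boxes (CANNTG), so these letters were searched on both strands in RefSeq promoters of GRCh38.p14, which run from 250 bases before to 50 bases after the annotated start. RefSeq promoters were held for 9 of the 10, not for NEAT1, and 6 of the 9 had a match, against 68.7% of 35116 promoters. MEG3, CASC15 and SNHG16 had none, so the transcript that rose most has no such letters in this window. The form CAGATG, which CANNTG includes, was found in 5161 of these promoters, and among these genes in MIAT, H19 and GAS5. The windows below show the only match of SNHG1 and the CAGATG of MIAT, the E-box in capitals, to let the letters be read beside a transcript that fell and one that rose.
SNHG1 (chr11:62856032-62856061, minus strand): gcgccgcaagttCAGGTGgcgctttgtcta
MIAT (chr22:26646346-26646375, plus strand): ttgcagagagccCAGATGcatctcataaat
The SNHG1 window lies between SNHG1 and SLC3A2, and the MIAT window belongs to the RefSeq start at which no MIAT start was listed in the FPKM values. A match is a description of the letters and says nothing of binding. The study mapped NeuroD1 binding in IMR-32 cells by chromatin immunoprecipitation and sequencing, and those binding sites were not used here.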

How the data were processed

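RNA was labelled as poly(A) RNA and sequenced in 2 shControl and 2 shNeuroD1 libraries. Raw counts per Ensembl gene were deposited by the authors, and the submitters' processing notes name cutadapt 1.9.1, HISAT2 2.0.1, HTSeq 0.6.1, DESeq2 and build hg38. FPKM values of transcript starts, ends and splicing events were also deposited by the authors, made by a tool not given in the sources used here; those tables assign MEG3, MIAT, SNHG1 and SNHG16 to overlapping genes, so events were matched to members by position and strand in GENCODE 29. Symbols were found for 60401 of 60612 gene IDs, and 58394 are in GENCODE 29. Fold changes and p-values of the authors were not used.

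Counts were fitted in edgeR 4.0.16 (R 4.3.3) with TMM scaling, filterByExpr (minimum count 10), glmQLFit and two-sided glmQLFTest, and Benjamini-Hochberg adjustment over 17537 genes. Calls were made at an adjusted p under 0.05. SE was the log2 fold change divided by the square root of F. The script was tested on simulated data. The alternatives were DESeq2 1.42.0 as test and as scaling, library totals alone, other filters, a replicate block, glmTreat at 1, limma 3.58.1 on log2(FPKM + 1) and log2(FPKM + 0.1), and leaving out each library. MALAT1 was left out of the FPKM fits, and NEAT1 and NBAT1 had no listing there, which left 7 members.

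Genes named besides the members were, per list, up to 2 largest rises and 2 largest falls at an adjusted p under 0.05 and a mean of at least 1 CPM, every gene of the NBAT1 and CASC15 list, IGF2, DLK1, and the nearest coding genes; a few others (SF1, RTL1, DIO3, PRRX1, HAND2) were named after their values were seen, and a few genes that the rule takes are not reported here. Members and lists were chosen with earlier results of these data known. Totals of 14665210 to 16482463 reads give few counts for NBAT1 and H19, and intervals cover the spread between libraries only.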

Additional observations from a re-analysis of the deposited data

Results flagged for a closer look

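MALAT1 was listed at 0 FPKM for its transcript starts in both shControl libraries, and at 3.61 FPKM in shNeuroD1 replicate 1 and 48.8 FPKM in shNeuroD1 replicate 2. The counts of the same libraries gave MALAT1 6001 and 6259 reads in shControl and 5884 and 5971 reads in shNeuroD1. It was noted because the deposited FPKM values of MALAT1 were used in no comparison. In shNeuroD1 replicate 2, 47.3 FPKM came from a start that was listed at 0 in the other 3 libraries. The cause was not tested.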

How the results depend on the processing

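Groups of 2 libraries limit every value here, and low reads limit NBAT1, H19 and NEAT1. Of 80 log2 fold changes recomputed with all libraries, 67 kept their direction and their side of the threshold. When libraries were scaled by totals alone, MALAT1 turned to 0.072 and GAS5 lost its call (-0.032), as it did without a filter (-0.16), which left 2 members lower in each case. The same scaling moved the lower share of all calls from 51.3% to 37.3%. In limma on FPKM with pseudocounts of 1 and 0.1, CASC15 (0.29 and 0.48), MIAT (0.89 and 0.93), GAS5 (-0.38 and -0.39), SNHG1 (-0.77 and -0.79) and SNHG16 (-0.73 and -0.74) lost their calls, leaving 1 member higher and 0 lower in each; the cause was not tested. With a log2 fold change beyond 1 also required, or with glmTreat, 2 members were higher and 0 lower. DESeq2 called 3775 genes lower and 3194 higher, against 4939 and 4698.

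Leaving out single libraries, NBAT1 ranged from -0.30 to -0.11, CASC15 from 0.43 to 0.55, MIAT from 1.18 to 1.19, MEG3 from 2.39 to 2.47, H19 from -0.24 to 1.04, MALAT1 from -0.064 to -0.017, NEAT1 from 0.59 to 1.02, GAS5 from -0.22 to -0.068, SNHG1 from -0.78 to -0.64, SNHG16 from -0.59 to -0.46 and NEUROD1 from -2.84 to -2.71. The counts ranged from 2 to 3 members lower and from 3 to 5 higher. H19 was -0.24 without shNeuroD1 replicate 1.

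Deviations of same-numbered libraries correlated at 0.0158 across genes, so no shared effect of the replicate number was seen. That value cannot tell if the libraries were paired by design. With the replicate block MEG3 was at 2.43 and GAS5 at -0.14, and the block changed no call of a member.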

Other observations

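Of 36 further long noncoding RNAs known from neural or cancer cells that were found in the table, 22 were tested. Among these, 6 were lower and 8 higher, beside 28.2% and 26.8% of all genes. The shares over long noncoding genes tested were 8.52% and 29.8%. MIR100HG, a microRNA host gene, rose from 19.2 and 20.1 CPM to 116 and 119 CPM (log2 fold change 2.58, adjusted p = 8.1e-25, edgeR), close in size to MEG3. DLX6-AS1, antisense to a homeobox gene of forebrain interneurons, rose from 5.84 and 6.11 CPM to 13.9 and 14.1 CPM (log2 fold change 1.22, adjusted p = 9.9e-09). MIR137HG, a neuronal microRNA host, fell from 19.3 and 20.6 CPM to 7.03 and 8.41 CPM (log2 fold change -1.37, adjusted p = 8.1e-11). CRNDE, a transcript of proliferating and fetal cells, fell from 78.2 and 77.6 CPM to 34.3 and 35.6 CPM (log2 fold change -1.16, adjusted p = 2.7e-16). Among the adrenergic markers the secretory granule genes CHGA (log2 fold change 0.75, adjusted p = 2.4e-15) and CHGB (log2 fold change 0.72, adjusted p = 1.5e-13) rose.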
